A study of Mus musculus with 125 samples.

Results

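Zic1, Zic2, Zic4 and Zic5 are 4 of the genes of the mouse Zic family of zinc-finger transcription factors, and they are described here as they were read in brain endothelium. They were chosen by symbol, as 4 of 27998 genes in the single-cell tables and as 2 genomic loci in the open-chromatin data. In the single-cell RNA-seq libraries a barcode was counted as endothelial when it held at least 200 genes, at most 10% mitochondrial UMIs and at least 3 of the 6 endothelial markers Cdh5, Pecam1, Egfl7, Esam, Tie1 and Kdr. This left 23709 of 42340 barcodes, with 3154 in the adult library, 4778 in that of P8, 3786 in that of E16.5, 6347 in that of E12.5 and 5644 in that of E9.5. In the ATAC-seq libraries, which mark open chromatin, the peaks counted were those overlapping a Zic gene or lying within 50 kb of one: 291 peaks at the Zic1 and Zic4 locus and 348 at the Zic2 and Zic5 locus, of 4776622 peaks in 66 lists.

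The series compares endothelial nuclei with input nuclei of the same organs, in brain, heart and trunk at E12, and at P6 and in the adult (2 months old) in brain, heart, kidney, liver, lung and retina. All bulk animals had received tamoxifen (0.015 mg/kg) and carried GFP in the vasculature; the driver and reporter alleles are not given in the sources used here. The labels call the postnatal libraries P6 while the protocol gives a later day of collection. For the single-cell libraries, 1 per age, cells were selected with CD31 MicroBeads from whole dissected brain in the embryo and from cortex at P8 and in the adult, with different dissociation methods, so age and preparation cannot be told apart. The name of the file of the E16.5 library gives a later embryonic age than its label, and the age of the label is used throughout. No genotype or strain is given for them. The labels do not say whether replicate bulk libraries came from separate animals, and p-values then measure the spread between these libraries only.

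Zic proteins bind GC-rich DNA through zinc fingers related to those of the Gli factors of the hedgehog pathway. They are known for their part in the early neural plate, in neural crest derivatives and in the meninges. The 4 genes lie in head-to-head pairs, Zic1 with Zic4 and Zic2 with Zic5. The pairs are the reason for treating the open-chromatin data by locus: both genes of a pair share a window, and a value of that window belongs to both.

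In the mm10 build (RefSeq annotation of GRCm38.p6), Zic1 lies at chr9:91358058-91365768 on the minus strand and Zic4 at chr9:91365631-91389351 on the plus strand, so their annotated 5′ ends overlap. Zic5 lies at chr14:122459160-122465658 on the minus strand and Zic2 at chr14:122475384-122480328 on the plus strand, with the long non-coding RNA gene 2610035F20Rik between them. The starts of Zic1, Zic4 and Zic5 are shown because the peaks described further on differ between them: the sequences run 5′ to 3′ on the gene's strand, from 250 bases before to 50 after the start in the RefSeq promoter table, with the motifs found in capitals. Zic1 is at chr9:91365719-91366018 (minus strand), Zic4 at chr9:91368722-91369021 (plus strand) and Zic5 at chr14:122465609-122465908 (minus strand). The Zic4 entry belongs to a start inside the annotated gene, downstream of the 5′ end that overlaps Zic1.
Zic1: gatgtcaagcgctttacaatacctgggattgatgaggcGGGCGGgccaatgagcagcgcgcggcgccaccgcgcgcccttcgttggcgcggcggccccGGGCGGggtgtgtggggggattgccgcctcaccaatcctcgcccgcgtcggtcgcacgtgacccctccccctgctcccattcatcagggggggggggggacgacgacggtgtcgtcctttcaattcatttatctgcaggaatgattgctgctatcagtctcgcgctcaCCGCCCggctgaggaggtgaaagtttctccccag
Zic4: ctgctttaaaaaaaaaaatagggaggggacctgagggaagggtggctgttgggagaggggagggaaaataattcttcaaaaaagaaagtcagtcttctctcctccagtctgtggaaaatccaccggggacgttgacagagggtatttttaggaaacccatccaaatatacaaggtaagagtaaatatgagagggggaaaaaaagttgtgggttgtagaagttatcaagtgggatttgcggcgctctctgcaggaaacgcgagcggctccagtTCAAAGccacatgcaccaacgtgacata
Zic5: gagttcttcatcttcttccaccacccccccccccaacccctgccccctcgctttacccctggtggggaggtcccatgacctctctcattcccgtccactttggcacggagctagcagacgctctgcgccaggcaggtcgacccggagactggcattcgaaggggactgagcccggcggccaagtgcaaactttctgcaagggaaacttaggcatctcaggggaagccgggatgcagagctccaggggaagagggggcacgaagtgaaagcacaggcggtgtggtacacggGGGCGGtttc
The Zic1 promoter was the richest of the 3 in CpG, with 31 CpG dinucleotides and 65.3% GC. Zic5 had 15 CpG and 62.7% GC, and Zic4 had 8 CpG and 46.0% GC. The medians over 32851 promoters of the same table were 7 CpG and 52.7% GC. The words searched, on both strands, were GGGCGG (a GC box), CTTTGA (a core bound by Lef/Tcf factors), CAGCAGG (a word bound by Zic factors) and GACCACCC (the Gli site). GGGCGG occurred 3 times in Zic1, at -212, -152 and, in reverse, +16 from the start, and 1 time in Zic5 at +40, against 35.7% of all promoters with at least 1. CTTTGA occurred 1 time in Zic4, in reverse at +22, against 16% of promoters. CAGCAGG and GACCACCC, found in 10.5% and 0.807% of promoters, were not among the letters of these 3 windows. No match overlapped another.

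Zic2 and Zic5 were read in endothelial barcodes at every age, at higher levels in the later libraries. Levels are given in CPM, a gene's UMIs among all UMIs of the endothelial barcodes of a library, scaled to 1000000. Their 95% intervals, and those of shares of barcodes, are exact (Poisson and Clopper-Pearson) and cover counting error only. With 1 library per age no test between ages was possible. Zic2 stood at 3.45 CPM at E9.5 (158 UMIs, interval 2.94 to 4.04), 11.96 at E12.5 (961 UMIs, 11.2 to 12.7), 24.0 at E16.5 (1021 UMIs, 22.6 to 25.6), 75.6 at P8 (4568 UMIs, 73.4 to 77.8) and 149 in the adult (3463 UMIs, 144 to 154). The 5 intervals did not overlap, and the adult level was 43.1 times that at E9.5. This ratio was 96.8 without any barcode with a neural, mural or fibroblast UMI. It was 25.4 without those with at least 2 markers of another class, erythroid included. Zic2 in these 2 sets was at 1.69 and 6.66 CPM at E9.5, and at 164 and 169 in the adult. No interval was taken for the ratios, so the part of counting error at E9.5 in their spread was not tested. Zic5 stood at 2.14 (98 UMIs, 1.74 to 2.61), 8.64 (694 UMIs, 8.01 to 9.30), 14.7 (624 UMIs, 13.6 to 15.9), 31.6 (1912 UMIs, 30.2 to 33.1) and 60.6 (1408 UMIs, 57.4 to 63.8) CPM at the same ages. Its intervals did not overlap either, and its adult level was 28.3 times that at E9.5. Under the same 2 removals the ratio was 40.1 and 21.6, from E9.5 levels of 1.49 and 2.96 CPM and again without an interval.

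Zic1 and Zic4 were read at lower levels. Zic1 stood at 1.01 CPM at E9.5 (46 UMIs, 0.736 to 1.34), 6.05 at E12.5 (486 UMIs, 5.52 to 6.61), 5.88 at E16.5 (250 UMIs, 5.18 to 6.66), 18.0 at P8 (1089 UMIs, 17.0 to 19.1) and 34.5 in the adult (801 UMIs, 32.1 to 36.9). The intervals at E12.5 and E16.5 overlapped and the others did not. Zic4 stood at 0.109 (5 UMIs, 0.0355 to 0.255), 1.46 (117 UMIs, 1.20 to 1.74), 1.58 (67 UMIs, 1.22 to 2.00), 5.23 (316 UMIs, 4.67 to 5.84) and 12.1 (282 UMIs, 10.8 to 13.6) CPM, again with overlap at E12.5 and E16.5 alone. Their annotated spans overlap at the 5′ ends, and whether the counting used strand is not given in the sources used here.

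Depth differed between the libraries, with a median of 4896 to 10469 UMIs per endothelial barcode, so shares of barcodes were also taken after each barcode was thinned to 1500 UMIs. This left out 157 shallower barcodes at E9.5, 59 at P8 and 111 in the adult. The share of barcodes with a Zic2 UMI was 2.62%, 12.7%, 19.9%, 47.3% and 53.2% from E9.5 to the adult before thinning, and 0.419%, 1.73%, 3.20%, 10.1% and 19.6% after it. For Zic5 the shares were 1.67%, 9.34%, 13.6%, 25.6% and 28.2% before and 0.364%, 1.17%, 2.01%, 3.96% and 8.68% after. Zic1 was found in few barcodes at each age, 0.744%, 4.49%, 3.12%, 7.43% and 7.89% before thinning and 0.200%, 1.09%, 1.03%, 1.84% and 2.83% after. Zic4 was found in 0.0886%, 1.45%, 1.08%, 3.85% and 4.98% before and 0.0182%, 0.205%, 0.185%, 0.636% and 0.854% after. The order of the ages for Zic2 and Zic5 was the same by level, by share and by thinned share.

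As a measure of RNA free in the suspension, myeloid barcodes (at least 3 of 8 myeloid markers and fewer than 3 endothelial ones) held a Zic2 UMI in 0.417% of 240 barcodes at E9.5 and 0.546% of 915 at E12.5. Their median depth there was 9707.5 and 7299 UMIs, against 7158.5 and 10469 in endothelial barcodes. At E16.5, P8 and in the adult 0 of 57, 24 and 53 myeloid barcodes held one, at medians of 5186, 2650.5 and 1256 UMIs. The endothelial share was above the myeloid share at each age. In the myeloid barcodes Zic1 was read at 0.835 and 5.46 CPM at E9.5 and E12.5, which at E12.5 was close to the 6.05 of the endothelial barcodes.

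Markers of other cell types set Zic1 and Zic4 apart from Zic2 and Zic5, less cleanly in the embryo than later. Mural markers (Pdgfrb, Kcnj8, Abcc9, Rgs5, Vtn, Cspg4, Notch3 and Higd1b, genes of pericytes and vascular smooth muscle) were summed to 10.6, 88.0, 237, 825 and 1516 CPM in the endothelial barcodes from E9.5 to the adult, with 1 of the 8 at 0 at E9.5 and none at the other ages. At least 3 mural markers were found in 4, 261, 155, 508 and 332 of the endothelial barcodes. Fibroblast or mesenchymal markers summed to between 22.5 and 70.1 CPM and neural markers to 178, 238, 231, 447 and 649, with 1 of 8 neural markers at 0 at P8 and 2 in the adult. No doublet caller was run. Instead the levels were taken again without every barcode that held any mural or fibroblast UMI, a choice made after seeing the data, which left 4238, 4898, 2981, 3280 and 2114 endothelial barcodes.

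Zic2 and Zic5 kept nearly the same levels in those barcodes. Zic2 was at 3.39, 11.7, 22.4, 74.9 and 150 CPM, and its adult level was 44.2 times that at E9.5. Zic5 was at 2.02, 8.06, 13.9, 30.9 and 59.2, with an adult level 29.3 times that at E9.5. Without any neural, mural or fibroblast UMI, which left 1746, 1519, 1113, 488 and 536 barcodes, Zic2 was at 1.69, 9.98, 19.2, 78.8 and 164 CPM. The age order of Zic2 was thus the same in barcodes that held none of the 24 markers.

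Zic1 and Zic4 were nearly absent once barcodes with a mural or fibroblast UMI were left out. Zic1 was at 0.996, 1.08, 0.387, 0.397 and 0.817 CPM, and its adult level was 0.820 times that at E9.5. Zic4 was at 0.0934, 0.157, 0.0323, 0.0851 and, in the adult, 0 CPM, where a count of 0 allows up to 0.245 (3 counts). In the adult, endothelial barcodes with 0, 1, 2 and at least 3 mural or fibroblast markers (2114, 592, 109 and 339 barcodes) had Zic1 at 0.817, 1.51, 3.88 and 146 CPM. At P8 the same 4 steps (3280, 826, 149 and 523 barcodes) had Zic1 at 0.397, 0.479, 2.23 and 107, and Zic4 at 0.0851, 0.319, 0.742 and 30.8. At E9.5, where mural markers were scarce, Zic1 was at 0.996 without and 6.51 with at least 3 such markers. Zic2 had no such step in the adult, at 150, 157, 143 and 140, or at P8, at 74.9, 75.0, 78.2 and 77.9. At E12.5 Zic2 was at 11.7, 11.2, 14.9 and 14.7. At E16.5 it was higher with more markers, at 22.4, 23.3, 30.7 and 44.0. The intervals there were 20.8 to 24.1 without and 36.0 to 53.3 with at least 3 markers. At E9.5 Zic2 was at 3.39 without and 6.51 with at least 3, a value that rests on 6 UMIs for Zic1 and Zic2 alike. Zic5 in the adult was at 59.2, 63.7, 58.2 and 61.3, and at P8 at 30.9, 34.9, 39.3 and 28.0. At E12.5 it was at 8.06, 8.57, 14.9 and 11.1, and at E16.5 at 13.9, 15.4, 19.7 and 19.9.

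**Figure D1:**
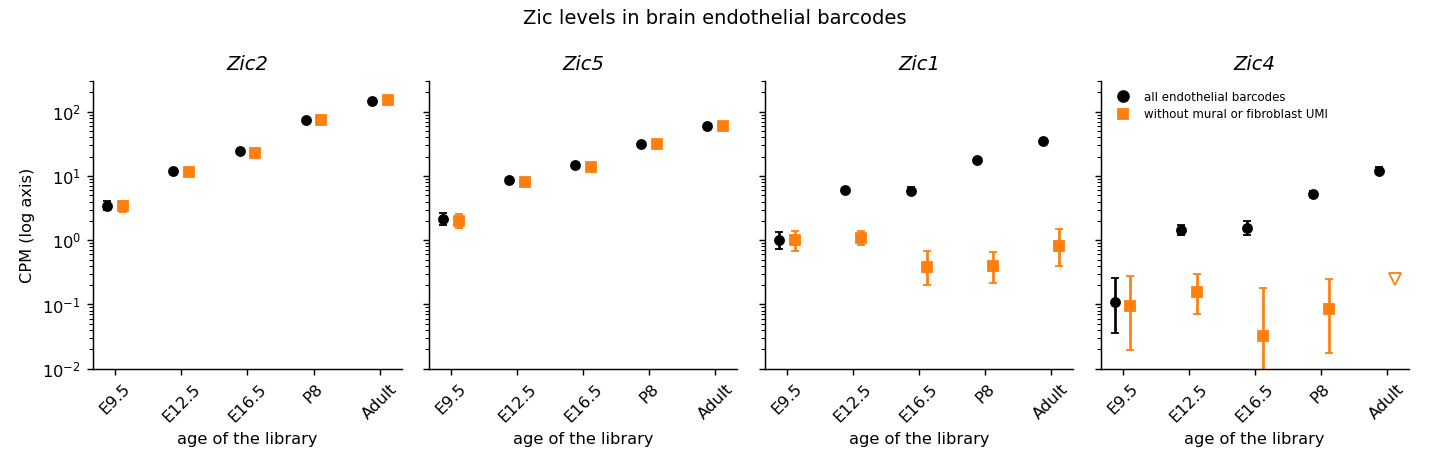
CPM of each Zic gene (log axis) in the single-cell library of each age, in all endothelial barcodes (black circles) and in those without any mural or fibroblast UMI (orange squares). Bars are exact 95% Poisson intervals, cut at the axis, and an open triangle is the level of 3 counts, the limit that a count of 0 allows; both series coincide closely for Zic2 and Zic5, while those of Zic1 and Zic4 part from E12.5 on.

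**Figure D2:**
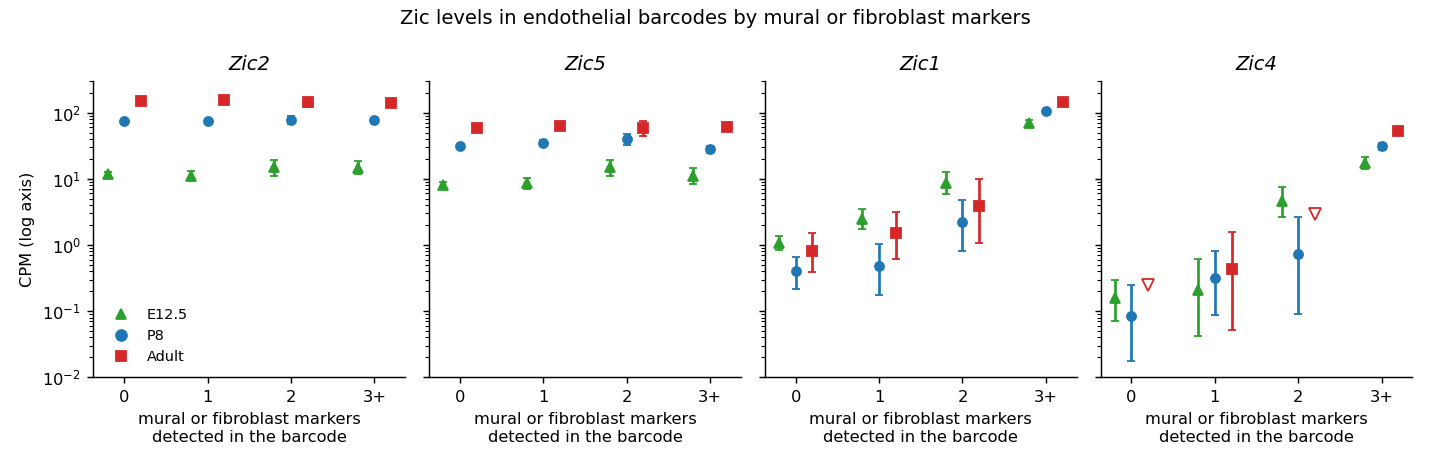
CPM of each Zic gene (log axis) in endothelial barcodes that held 0, 1, 2 or at least 3 mural or fibroblast markers, at E12.5, P8 and in the adult, with exact 95% Poisson intervals and open triangles at the level of 3 counts where the count was 0. Zic1 and Zic4 are high in the barcodes with at least 3 such markers. Zic2 and Zic5 lie near 1 level at P8 and in the adult, while at E12.5 Zic5 is at 8.06 with 0 and 14.9 with 2 markers.

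Barcodes of other classes (at least 3 of their own markers and fewer than 3 endothelial ones) gave the levels outside endothelium, some over few barcodes. Zic1 in mural barcodes was at 244 CPM at E12.5 (235 barcodes), 379 at E16.5 (32), 474 at P8 (140) and 429 in the adult (123). In fibroblast or mesenchymal barcodes it was at 21.6, 166, 489, 315 and 290 from E9.5 to the adult (99, 171, 13, 64 and 18 barcodes). The classes were not exclusive, and 1, 78, 1, 51 and 9 of these barcodes also held at least 3 mural markers. In them mural markers summed to 10052 CPM at P8 and 7149 in the adult, against 3338 and 1993 for fibroblast or mesenchymal markers. At those ages the class is thus not a reading apart from the mural one. Zic4 in mural barcodes was at 61.3, 101, 118 and 188 from E12.5 on, and in fibroblast or mesenchymal barcodes at 4.32, 40.0, 76.02, 122 and 141. Both genes were higher in each of these classes than in the endothelial barcodes of the same age, wherever the class held more than 1 barcode. Zic2 in mural barcodes was at 15.8, 12.6, 43.4 and 111, and in fibroblast or mesenchymal ones at 10.1, 16.5, 97.7, 48.8 and 164.8. These classes also held endothelial RNA: the 6 endothelial markers summed to 355, 727, 448 and 326 CPM in the mural barcodes, against 3165, 3888, 3244 and 3078 in the endothelial ones, and its part in the Zic2 levels was not tested. Zic5 in mural barcodes was at 19.3, 0, 30.8 and 26.2. In fibroblast or mesenchymal barcodes Zic5 was at 1.44, 32.2, 108.6, 40.0 and 23.5 from E9.5 to the adult. These were 0.672, 3.73, 7.39, 1.27 and 0.389 times its endothelial levels. For Zic2 in the same class the ratios were 2.92, 1.38, 4.07, 0.645 and 1.11. In neural barcodes, of which 30, 54, 30, 8 and 8 were found, Zic1 was at 37.6, 156, 274, 77.2 and 0, and Zic5 at 0, 62.1, 164, 96.6 and 31.0.

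Within endothelium, Zic2 and Zic5 were higher in barcodes with venous than with arterial markers. In the adult Zic2 was at 184 CPM in 487 venous barcodes (174 to 195) and at 104 in 771 arterial ones (96.9 to 111). At P8 these were 82.1 (78.6 to 85.7) and 68.0 (63.1 to 73.3), at E12.5 15.4 (13.6 to 17.3) and 10.4 (9.08 to 11.9), and at E16.5 27.2 and 23.8, with intervals that overlapped. Without mural or fibroblast UMIs the adult values were 177 and 103. Zic5 was at 80.0 (73.1 to 87.3) in venous and 52.4 (47.7 to 57.5) in arterial adult barcodes, and at 37.96 and 29.0 at P8. Barcodes with Mfsd2a, a lipid transporter of the blood-brain barrier, had Zic2 at 155 (149 to 161) in the adult against 124 (114 to 135) in those without it. At E12.5 these were 14.4 (13.03 to 15.8) and 10.6 (9.71 to 11.5), and for Zic5 the intervals with and without Mfsd2a overlapped at both ages. Zic5 at P8 was at 38.4 (35.4 to 41.6) in barcodes with cycling markers and 28.9 (26.8 to 31.2) in those without, where Zic2 was at 74.1 and 73.4. Each of these is a difference within 1 library per age and was given no test.

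The second gene of a pair was found more often in barcodes that held the first than in those that did not, apart from Zic4 at E9.5, where 0 of its 5 barcodes held Zic1. Of adult endothelial barcodes with a Zic2 UMI 36.5% also held Zic5, against 18.6% of those without. The median depth was 5990 UMIs in the former and 4223 in the latter, and the part of depth in this was not tested. At P8 the shares were 35.4% and 16.8%, and at E12.5 21.1% and 7.63%. Zic4 was found in 57.0% of adult barcodes with Zic1 and in 0.516% of those without, at median depths of 12951 and 4714 UMIs. At P8 these were 44.2% and 0.610%, and at E12.5 23.2% and 0.429%.

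Levels were also compared over 21 marker-defined classes of at least 50 barcodes in the 5 libraries. The classes share libraries, depths and some barcodes. The genes whose levels went most closely with each member, among 15465 genes, are given as a description. For Zic1 these were Zic4 (Pearson r 0.985), S1pr3 (0.978), Ednra (0.977), Tbx18 (0.969) and Heyl (0.965). For Zic4, after Zic1, they were S1pr3, Ednra, Tbx18 and Rgs4. For Zic5 they were Zic2 (0.927), Lmcd1, Afap1l2, Setd3 and Ebf1, and for Zic2 they were Ccser2, Pcdh19, Pls3, Aamdc and Tns2. Zic1 and Zic2 had an r of 0.738.

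Related genes are given beside the members for scale, in the same endothelial barcodes. Of 6 Gli relatives, Gli3, mainly a repressor of hedgehog targets, was at 9.64 CPM at E9.5 and 0.516 in the adult, and Glis2 at 7.04 and 20.0. Gli1, the activator induced by hedgehog signalling, was at no more than 0.393 at any age. Of 11 hedgehog genes, the receptor Ptch1 stood between 10.3 and 18.6 and the transducer Smo between 18.9 and 41.6. Of the ligands, Shh was at 0.437 at E9.5 and 0 later, and Dhh at 3.02, 7.57, 5.44, 3.41 and 5.38 from E9.5 to the adult. Among 12 brain endothelial factors and Wnt targets, Foxq1 was at 5.62, 170, 352, 384 and 568.4, Lef1 at 27.8, 80.7, 130, 186 and 539, and Axin2 at 2.80, 9.54, 28.6, 38.1 and 126. Of the 12 genes, 5 had, as Zic2 and Zic5 did, their lowest level at E9.5 and their highest in the adult (these 3, Foxc1 and Sox17). The other 7 were highest before the adult, among them Foxf2 at 1.25, 125.5, 164, 144 and 102.

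Open chromatin at both loci was present in brain and retina endothelium at every age measured, and in endothelium of heart, kidney, liver and lung it was not called in the adult. The measure is the share of a locus window covered by the authors' peaks, over 131 kb at Zic1 and Zic4 (chr9:91308058-91439351) and 121 kb at Zic2 and Zic5 (chr14:122409160-122530328). In bulk nuclei, fewer cells with an open locus and less open chromatin per cell cannot be told apart. The endothelial lists held 19464 to 120456 peaks and 10139069 to 59082479 tags. The start of each of the 3 endothelial markers in the promoter table had a peak in each of the 37 endothelial libraries. Brain endothelial P6 library 1 had a short list of 27160 peaks and stood apart, and the P6 comparisons of brain with other organs and with E12 are also given without it.

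At the Zic2 and Zic5 locus the 2 adult brain endothelial libraries had 3.58% and 5.48% of the window in peaks, the 2 retina libraries 3.24% and 2.12%, and each of the 8 libraries of heart, kidney, liver and lung 0%. Both brain libraries lay above all 10 others. The brain mean was higher than that of the 10 others by 3.99 percentage points (exact 2-sided permutation test, p = 0.0152, the smallest this design allows, adjusted p = 0.0346 over 16 locus tests). Without either brain library the other still lay above all 10, which allows no p below 0.0909 (exact permutation), so the call needs both. At P6 the brain libraries had 3.39%, 6.49% and 6.77%, the retina 5.17%, 5.55% and 5.18%, and the 8 others from 0% to 1.32%. The brain libraries overlapped those of retina and lay above all of heart, kidney, liver and lung. The difference of 3.68 points over the 11 others did not pass after adjustment (exact 2-sided permutation p = 0.0275, adjusted p = 0.0549), and without brain library 1 it was 4.76 points. With an equal number of top peaks by fold in each list it was 0.645 points (exact 2-sided permutation p = 0.214). That value came from brain library 1 alone, at 1.93%, with every other P6 endothelial library at 0%. At E12 the brain libraries had 7.42%, 8.91% and 8.88%, the heart 7.93%, 5.45%, 0.952% and 6.92%, and the trunk 5.29%, 5.53%, 5.41% and 8.02%. Brain and the other organs overlapped there, and the difference of 2.72 points did not pass (exact 2-sided permutation p = 0.0727, adjusted p = 0.116). It was 3.96 points with stricter peaks, of -log10 q of at least 5 (exact 2-sided permutation p = 0.0121). With equal numbers of top peaks it was -0.261, where each brain library was at 0%. Over the 3 ages as strata the brain mean was 3.46 points higher (exact 2-sided permutation p = 3.56e-05, adjusted p = 0.000539), with 6 of 8 brain libraries above every other library of their age.

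At the Zic1 and Zic4 locus the adult brain libraries had 2.26% and 2.01%, the retina 0.535% and 1.11%, and each of the 8 others 0%. The difference of brain from the 10 others was 1.97 points (exact 2-sided permutation p = 0.0152, the smallest possible, adjusted p = 0.0346), and both brain libraries lay above all of these. As at the other locus, with either brain library left out no p below 0.0909 was possible (exact permutation), so the call needs both. At P6 the brain had 0.998%, 3.03% and 1.80%, the retina 2.50%, 1.89% and 3.07%, and the others 0% to 0.661%. The difference from all 11 others, retina included, was 1.02 points (exact 2-sided permutation p = 0.184, adjusted p = 0.227), or 1.49 without brain library 1 and 0.472 without brain library 2. Without retina library 3 it was 1.23 points (exact 2-sided permutation p = 0.042), and divided by the share of the genome in peaks it was 0.846 (exact 2-sided permutation p = 0.011). Without retina among the others it was 1.601 points (exact 2-sided permutation p = 0.00606). At E12 the brain had 5.85%, 3.80% and 3.90%, the heart 2.26%, 2.56%, 0.216% and 3.90%, and the trunk 2.43%, 3.15%, 2.29% and 3.94%. The groups overlapped, with a difference of 1.92 points (exact 2-sided permutation p = 0.0667, adjusted p = 0.116). It was 0.958 with stricter peaks (exact 2-sided permutation p = 0.0182) and 0.0 with equal numbers of top peaks, where each of these libraries was at 0%. Over the 3 ages the brain mean was 1.64 points higher (exact 2-sided permutation p = 0.000132, adjusted p = 0.000539), with 3 of 8 libraries above every other of their age. With equal numbers of top peaks the differences over the 3 ages were 0.275 points at Zic2 and Zic5 and 0.204 at Zic1 and Zic4 (exact 2-sided permutation p = 0.0447 and p = 0.00649). The P6 part of both came from brain library 1 alone.

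Retina, the other organ here whose endothelium forms a barrier, also stood above heart, lung, liver and kidney at P6 and in the adult taken as strata. Its mean was 3.70 points higher at the Zic2 and Zic5 locus and 1.49 points higher at the Zic1 and Zic4 locus, with 5 of 5 libraries above all others of their age at each locus (exact 2-sided permutation p = 0.000135, the smallest possible, adjusted p = 0.000539 for each). When each list was cut to an equal number of its top peaks by fold, the difference at Zic2 and Zic5 was 0.0 points and the call was lost (exact 2-sided permutation p = 1.0), while at Zic1 and Zic4 it was 0.126 points (exact 2-sided permutation p = 0.0222). At Zic2 and Zic5 each of these libraries was then at 0%, so that setting cannot compare them. The authors' read files differed in kind between organs, by the names in the peak-list headers. In the adult and at E12 the brain libraries shared their kind of processing with no other endothelial library, so there organ and processing cannot be told apart. Within 1 kind, retina stood above lung at both loci, with means of 3.99% and 0.387% at Zic2 and Zic5 and of 1.66% and 0.229% at Zic1 and Zic4 (exact 2-sided permutation p = 0.0167, the smallest possible, for each). Also within that kind at Zic2 and Zic5, the brain P6 libraries were at 3.39% in library 1, whose list was short, and 6.49% in library 2. The lung P6 libraries were at 0.678% and 0.871%, below both, and the 3 retina libraries at 5.17% to 5.55%, between them. At Zic1 and Zic4 brain was at 0.998% and 3.03%, lung at 0.319% and 0.598%, and retina at 1.89% to 3.07%. Against retina and lung together the brain difference did not pass (exact 2-sided permutation p = 0.476 and p = 0.714), and that against lung alone was not tested.

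Between ages of brain endothelium no design here could reach 0.05, since 3 libraries against 3 or 2 allow no p below 0.1. At P6 both loci were below E12 in all 3 libraries, by means of 5.55% against 8.40% at Zic2 and Zic5 and 1.94% against 4.52% at Zic1 and Zic4 (exact 2-sided permutation p = 0.1 for each, adjusted p = 0.133). Without P6 library 1 the P6 means were 6.63% and 2.41%, and the other 2 libraries still lay below each E12 library. With an equal number of top peaks in each list the direction turned, to 0.645 and 0.187 points higher at P6. That turn came from P6 library 1 alone, which then had 1.93% and 0.561%. The other P6 libraries and the E12 libraries of brain endothelium were at 0% at both loci. Adult and P6 overlapped at both loci (exact 2-sided permutation p = 0.6 and p = 0.7).

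The brain input libraries were open at both loci too. At Zic1 and Zic4 the inputs had 11.5% at E12, 3.36%, 5.84% and 3.26% at P6 and 3.86% in the adult. Endothelial libraries were lower by a mean of 3.63 points, with 8 of 8 below every input of their age (exact 2-sided permutation p = 0.00417, the smallest possible, adjusted p = 0.0133). Divided by the share of the genome in peaks, the endothelial value was lower by 0.394 and the call was lost (exact 2-sided permutation p = 0.313). With an equal number of top peaks in each list the direction turned, to 0.0950 points higher in endothelium (exact 2-sided permutation p = 0.4). At Zic2 and Zic5 the inputs had 10.5% at E12, 3.57%, 6.12% and 3.82% at P6 and 4.96% in the adult. There the difference was -0.489 points (exact 2-sided permutation p = 0.546, adjusted p = 0.624), and 0.306 in the other direction without the E12 input. Divided by the share of the genome in peaks, it was 1.45 higher in endothelium (exact 2-sided permutation p = 0.00833), and with equal numbers of top peaks 0.253 points higher.

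**Figure D3:**
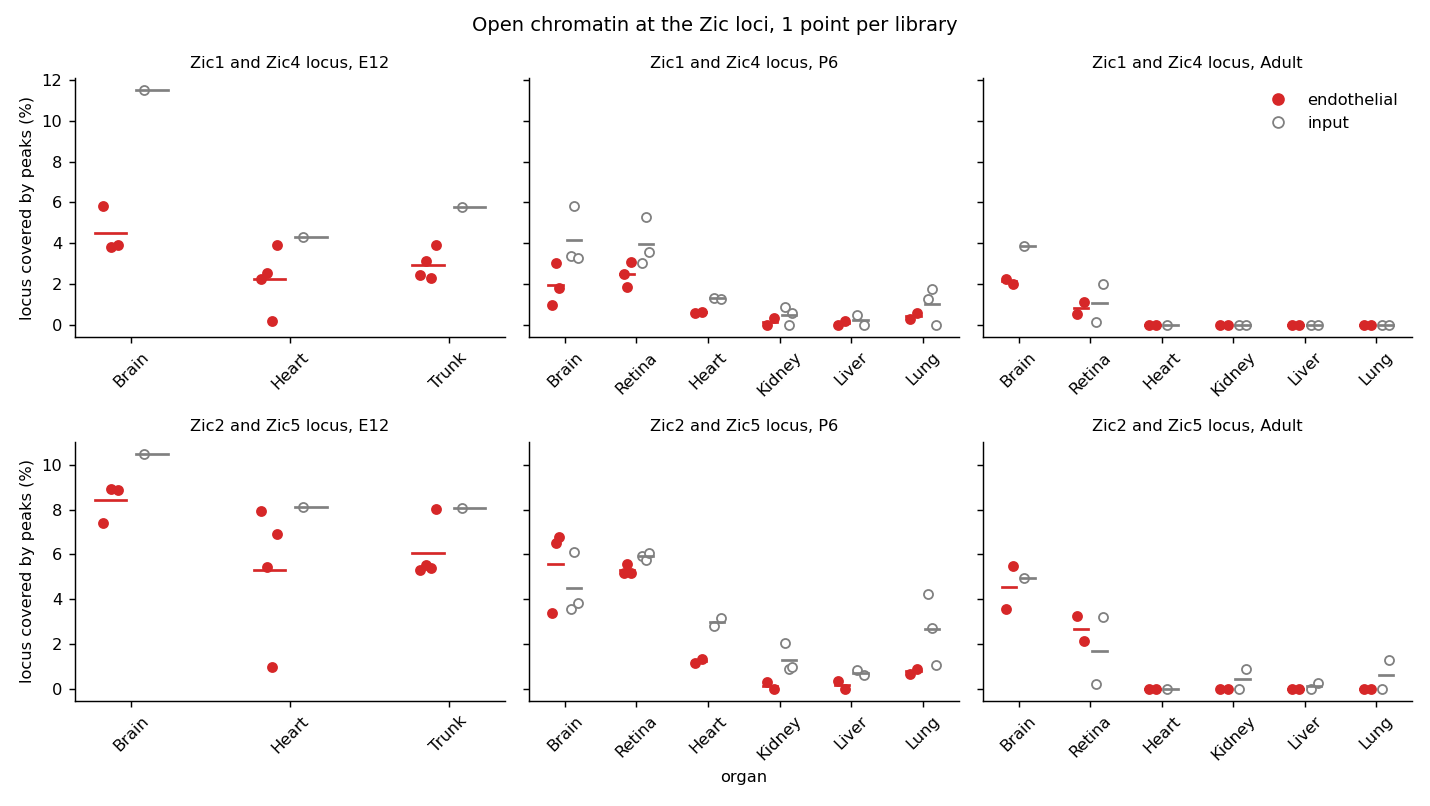
Percent of each Zic locus window covered by peaks in each of the 66 libraries, by organ and age, with endothelial libraries in red, inputs as open grey circles and short lines at the group means. Brain and retina endothelium lie above the other organs at P6 and in the adult, where the endothelial libraries of heart, kidney, liver and lung are at 0, and overlap with or lie near the others at E12 for brain.

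Start peaks were also counted for markers of other cell types, and these lists did not all go the same way. Of 7 neural markers in the promoter table, a start peak was found for 6 to 7 in brain endothelial libraries at E12, 4 to 7 at P6 and 3 in the adult, and for 6 in retina endothelium. In the other endothelial libraries it was found for 2 to 6 at E12, 1 to 2 at P6 and 1 in the adult, and in brain input for 7. Of 4 glial markers 2 had a peak in adult brain endothelium, 1 to 2 in adult retina endothelium and 0 in the other adult endothelial libraries. Of 5 fibroblast markers 3 had one in adult brain endothelium, 0 in adult retina endothelium and 0 to 1 in the other adult endothelial libraries. Of 6 mural markers 1 to 3 had one in adult brain endothelium, 1 to 2 in adult retina endothelium and 0 to 2 in the others. At P6 it was 5 to 6 in retina endothelium, above the 2 to 4 of the other organs, and in brain endothelium 0 in library 1 and 4 and 5 in the others. Of 5 myeloid markers 0 had one in adult brain endothelium, 0 to 1 in adult retina endothelium and 0 to 2 in the others. For these it was 0 at E12 in brain endothelium and 0 to 1 in the others. At P6 it was 0 to 4 in brain, 0 to 1 in retina and 0 to 3 in the others. Of 7 barrier markers 7 had one in each brain and retina endothelial library and 3 to 7 in the others. The part of nuclei of other cell types in the values of the Zic loci was not tested.

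Near the starts (a peak within 500 bp), Zic1, Zic2 and Zic5 each had a peak in 8 of 8 brain endothelial libraries, 5 of 5 retina endothelial libraries and 5 of 5 brain inputs. A peak in all 8 brain libraries was found for 35.2% of 32851 entries of the promoter table. In endothelium of the other organs, Zic1, Zic2 and Zic5 had a start peak in 7, 7 and 6 of 8 libraries at E12, in 0, 2 and 1 of 8 at P6 and in 0 of 8 in the adult. Zic1 alone of the members had a peak in every P6 and adult brain endothelial library and in none of heart, kidney, liver and lung at those ages, as 0.149% of entries did. No library had a peak within 500 bp of the Zic4 start of the table, the entry with the fewest CpG of the 3 shown above. The stretch in which the 5′ ends of Zic1 and Zic4 overlap met a peak in 0 of 3 brain endothelial libraries at E12, 2 of 3 at P6 and 2 of 2 in the adult. The Zic1 start peak had the authors' fold enrichment at a median percentile of 24.6 in its own list in brain endothelium (range 3.30 to 86.2), Zic2 at 29.4 (22.0 to 48.0) and Zic5 at 18.3 (1.02 to 34.4, or 12.9 to 34.4 without P6 library 1). With peaks of -log10 q of at least 5, the Zic1 start kept its peak in 4 of 8 brain endothelial libraries, Zic2 in 8 and Zic5 in 7.

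The start peak of Zic2 was 1401 to 1838 bp long in the 8 brain endothelial libraries. That of Zic5 was 1864, 2391 and 2406 bp long at E12, 704, 1765 and 1818 bp at P6, and 251 and 302 bp in the adult. The longest peak of the locus lay at the start of one or the other gene in each of these libraries. It was 1401 to 2406 bp long, longer than at least 99.2% of the peaks of its list, with a fold of 2.82 to 3.82 in the authors' lists. In adult brain endothelial libraries it lay over the Zic2 start, at E12 over the Zic5 start, and the brain inputs of those ages had it at the same starts. This was not particular to brain endothelium. The longest peak also lay over the start of either gene in each P6 brain input, each P6 retina endothelial library and each E12 trunk endothelial library.

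Gene windows drawn in the same way around every gene (the gene and 50 kb on each side) gave the background. In the adult the windows of 4 of 4 members were higher in every brain endothelial library than in every other endothelial library, against 6.03% of 19083 genes. These are 2 loci, not 4 independent windows. At E12 this held for 0 of 4 members against 6.06% of 20225 genes, and at P6 for 0 of 4 against 0.0151% of 19837. Leaving out brain library 1, it held for 2 of 4 at E12 against 14.6% of genes and for 2 of 4 at P6 against 5.65% (Zic2 and Zic5, which share a locus, at both ages). With stricter peaks (-log10 q of at least 5) it held for 2 of 4 in the adult against 3.7%. The members' median difference was 2.69, 2.72 and 3.49 points at E12, P6 and in the adult, beside 0.766, -0.374 and 0.158 over all genes tested. Among 12 brain endothelial factors and Wnt targets, 7 windows were higher in every brain library at E12 (Apcdd1, Axin2, Foxc1, Foxf2, Foxl2, Foxq1 and Lef1) and 0 in the adult. Of the Gli relatives this held for Glis1 at E12 and for Gli2 and Gli3 in the adult, and of the hedgehog genes at E12 for Ptch1 and in the adult for Boc, Cdon and Ptch1.

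Within the 2 loci, 500-bp bins located the openings. A bin was tested against other organs where it was open in at least 2 endothelial libraries of that age. In the adult, 5 of 6 tested bins at Zic1 and Zic4 and 2 of 9 at Zic2 and Zic5 were open in every brain endothelial library and in no other organ's endothelial library, against 5.8% of bins genome-wide. No peak was called at either locus in the 8 adult libraries of heart, kidney, liver and lung. Adult bins were thus tested there only through brain or retina libraries, and those 8 could not have gone against the call. Bins of the background entered through any organ, so the shares are not alike in this. At Zic1 and Zic4 the called bins formed 4 runs. The first, chr9:91350501-91351500, lay 14.3 kb past the Zic1 start over the long non-coding RNA genes A730094K22Rik, Gm40545 and Gm40546, and was open in 8 of 8 brain endothelial libraries over all ages. It was also open in 3 of 5 retina libraries, in 4 of 24 endothelial libraries of the other organs, and in each brain input but the adult one. In adult brain endothelium the longest peak of the locus lay there. The others were chr9:91365001-91365500 in Zic1 itself, 0.268 kb past its start, chr9:91381501-91382000 in Zic4, 12.5 kb past its start, and chr9:91405001-91405500 in the long non-coding RNA gene Gm29478. The run inside Zic4 was also open in 9 of 24 endothelial libraries of the other organs, all of them at E12 or P6.

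At Zic2 and Zic5 the adult bins were chr14:122426501-122427000, in the long non-coding RNA gene Gm5089 38.7 kb past the Zic5 start, and chr14:122491001-122491500, in Pcca 15.6 kb past the Zic2 start. The Pcca bin was open in 2 of 2 adult, 1 of 3 P6 and 2 of 3 E12 brain endothelial libraries, and also in 5 of 24 endothelial libraries of the other organs, 1 of 5 of retina and 2 of 3 P6 brain inputs. The Gm5089 bin was open in 2 of 2 adult and 2 of 3 P6 brain endothelial libraries, in 0 of 3 at E12, in 0 of 24 other endothelial libraries and in 0 of 5 of retina. Of the brain inputs, 0 of 3 at P6 and 0 of 1 in the adult had it open, and 1 of 1 at E12. At E12, 0 of 13 tested bins at Zic1 and Zic4 and 2 of 26 at Zic2 and Zic5 were open in every brain endothelial library and in no other organ's, against 1.76% of bins. One of these, chr14:122486501-122487000 in Pcca 11.1 kb past the Zic2 start, was open in 3 of 3 E12 brain endothelial libraries, in 0 of 5 brain inputs, in 0 of 24 other endothelial libraries and in 1 of 5 of retina. It was open in 0 of 3 brain libraries at P6 and 0 of 2 in the adult. At P6, 0 of 7 and 0 of 16 bins were so, against 0.185% of bins, and without brain library 1 it was 2 in both loci together, against 4.02% of bins.

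Against brain input, a bin was tested where it was open in at least 2 brain libraries of the age. In the adult, 2 of 7 tested bins at Zic1 and Zic4 and 2 of 9 at Zic2 and Zic5 were open in every brain endothelial library and not in the input, against 16.3% of bins. At E12 it was 1 of 16 and 3 of 23, against 25.1%, and at P6 0 of 11 and 0 of 18, against 2.88%. The members' shares at E12 were below the background.

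**Figure D4:**
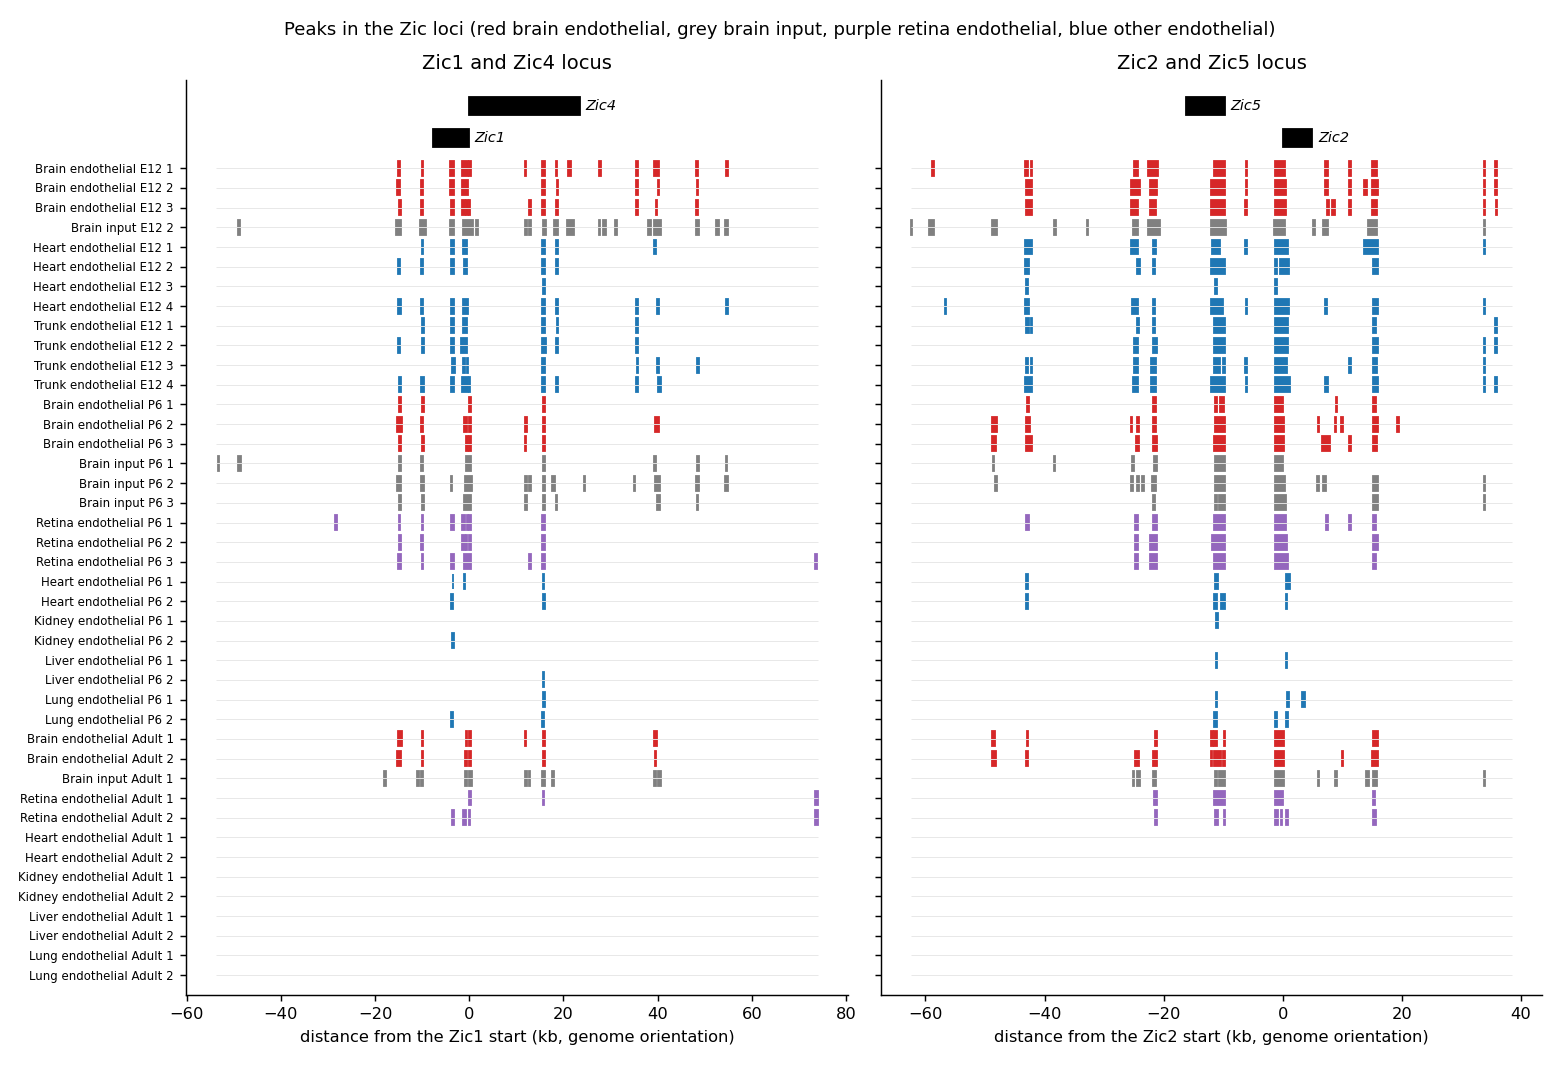
Peaks at both Zic loci by distance from the Zic1 start (left) or the Zic2 start (right) in kb, in genome orientation, with a row for each endothelial library and each brain input and black bars for the annotated genes. Brain endothelial (red), brain input (grey) and retina endothelial (purple) rows hold peaks at every age shown, and the 8 adult rows of the other organs (blue) hold none.

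Over the 37 endothelial libraries, the gene windows over 1 Mb away that went most closely with the Zic2 and Zic5 locus included Foxf2 (Pearson r 0.953), Pou3f2 (0.951), Ism1 (0.949) and Lypd6b (0.947). For the Zic1 and Zic4 locus they were Gm2102, Bmpr1b (0.938), Trpm6, Neurog1 (0.935) and Sox2 (0.934). The r between the 2 loci was 0.917. These are descriptions over libraries that share organs, ages and depth.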

How the data were processed

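Single-cell tables hold raw UMI counts per gene and barcode, made by the authors with Cell Ranger (4.0.0 per the file headers of the E9.5, P8 and adult tables). The E16.5 table came without gene names, and its rows were taken to follow the other 4 tables, whose gene order is identical. Across genes its profile correlated at 0.928 to 0.978 with theirs, and at about 0.20 when moved by 1 row. From 0 to 50 barcodes were shared by any 2 libraries. ATAC peak lists were made by the authors with MACS2 (2.1.2 per the file headers) in broad mode, per library and without a control, after Bowtie2 and SAMtools 1.13 per the submitters' processing notes, with mm10 as the build. Each list gives, per the file headers, a pileup signal, a fold enrichment over local background, and −log10 of p and q. Only peak positions were used for covered shares; the authors' fold ranks peaks within a list and −log10 q sets the stricter lists. No column of the tables belonged to an unlisted sample (0 left out). Nuclear RNA-seq tables are not used here.

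Computed from these were CPM, shares of barcodes with Clopper-Pearson intervals, shares of the locus covered, and exact permutation tests of the difference of means, stratified by age, with Benjamini-Hochberg adjustment over 16 tests (Python 3.11.15, numpy 2.4.6, scipy 1.17.1, pandas 2.3.3). A bin of 500 bp was open where peaks covered at least 250 bp. The floor of a count of 0 is 3 counts. The test code was tested on simulated data. Between replicates at most 0.0557% of peaks were identical, so each library counted as its own. Named genes are the members, lists of 6 Gli relatives, 11 hedgehog genes and 12 brain endothelial factors and Wnt targets, the 5 genes of most similar pattern, and the runs of called bins. Values of some listed genes are not reported here. The members, lists and tests were chosen with earlier results of these data known. Promoter sequences are from RefSeq (GRCm38.p6), where 3 of the 4 members were matched. Alternatives changed the marker, depth and mitochondrial limits, the removal of mixed barcodes, the peak threshold, the number of top peaks, the scaling, the window and each library in turn.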

Additional observations from a re-analysis of the deposited data

Results flagged for a closer look

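Trunk endothelial E12 library 4 had 8.02% of the Zic2 and Zic5 locus in peaks, apart from the other 3 trunk libraries at 5.29%, 5.53% and 5.41%. Its gap to the nearest of them exceeded the 95% limit for a single outlying value among 4. Chance singles out about 1 in 20 groups in this way, and the cause was not tested.

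Input nuclei of organs other than brain entered none of the comparisons above. In some of them the lowest input library lay above every endothelial library of the same organ and age. At the Zic1 and Zic4 locus this was so for heart at E12 (4.29%), trunk at E12 (5.79%) and heart at P6 (1.30%). At the Zic2 and Zic5 locus it was so for heart at E12 (8.11%), trunk at E12 (8.09%), and at P6 for heart (2.78%), kidney (0.888%), liver (0.627%), lung (1.06%) and retina (5.76%). At E12 there was 1 input library per organ. These differences were not tested.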

How the results depend on the processing

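Counting depth limits Zic4 most, with 5 UMIs at E9.5, and 1 library per age leaves the age order without a test. The short list of brain P6 library 1 limits the P6 calls, and 2 adult brain libraries cannot give a smaller p than 0.0152. Outside the settings that leave out 1 library, 185 recomputed values kept their direction and side of the threshold or moved within their interval, and 102 did not.

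Levels below are CPM. Requiring at least 5 endothelial markers moved Zic1 to 0.641, 4.74, 5.12 and 16.9 from E9.5 to P8, Zic2 to 4.05 at E9.5, and Zic4 to 1.08 at E12.5 and 1.18 at E16.5. A mitochondrial limit of 5% moved Zic1 to 7.46 at P8 and 24.0 in the adult, Zic2 to 80.7 and 143.5, Zic5 to 28.7 at P8, and Zic4 to 0 at E9.5, 1.19 at E16.5, 1.81 at P8 and 9.22 in the adult. Leaving out barcodes with any mural or fibroblast UMI, chosen after seeing the data, moved Zic1 to 1.08, 0.387, 0.397 and 0.817 from E12.5 on, Zic4 to 0.157, 0.0323, 0.0851 and 0, and Zic2 at E16.5 to 22.4. Leaving out neural UMIs as well moved Zic2 to 1.69, 9.98, 19.2, 78.8 and 164, Zic5 to 1.49, 7.18, 12.5 and 27.6 from E9.5 to P8, Zic1 to 1.25, 0.480, 1.58 and 1.02 from E12.5 on, and Zic4 to 0.156, 0, 0 and 0. Leaving out barcodes with at least 2 markers of any other class gave Zic1 at 0, 0, 0.565, 0.363 and 1.17, and Zic4 at 0.740, 0, 0.0807, 0 and 0. It gave Zic2 at 6.66 at E9.5, 19.8 at E16.5, 79.0 at P8 and 168.8 in the adult, and Zic5 at 2.96, 6.501, 12.02 and 63.9 (all but P8). This removal counted erythroid markers, at least 3 of which were found in 3899 of 5644 endothelial barcodes at E9.5 and 5221 of 6347 at E12.5. The values at these 2 ages come from the smaller set left. A 0 there is a count of 0 in that set, and whether it differs from the main level was not tested. With erythroid markers set aside, also chosen after seeing the data, Zic1 moved to 1.23, 0.358, 0.418 and 1.37 from E12.5 on and Zic4 to 0.108, 0.0652, 0.148 and 0.0858. Zic2 moved to 22.3 at E16.5 and 166.9 in the adult, and Zic5 to 13.6 at E16.5. Leaving out barcodes found in another library moved no level outside its interval. The age order of Zic2 was the same in all of these settings.

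For the loci, values are differences in percentage points with exact 2-sided permutation p. Those divided by the share of the genome in peaks are differences of ratios, not points. With an equal number of top peaks by fold in each list, the difference at Zic1 and Zic4 reversed against brain input (0.0950, exact permutation p = 0.4) and between P6 and E12 (0.187). At Zic2 and Zic5 it reversed for brain at E12 (-0.261), against input (0.253) and between P6 and E12 (0.645), and it lost the raw threshold at P6 (0.645, exact permutation p = 0.214) and for retina (0.0, exact permutation p = 1.0). The values between P6 and E12, and that at P6, came from brain P6 library 1 alone. The other brain P6 libraries and the E12 ones were at 0% at both loci. For retina each library of either side was at 0%. Divided by the share of the genome in peaks, the brain difference at Zic1 and Zic4 passed at P6 (0.846, exact permutation p = 0.011), the difference from input was -0.394, and that at Zic2 and Zic5 reversed to 1.45. With stricter peaks the E12 brain differences passed, at 0.958 and 3.96 (exact permutation p = 0.0182 and p = 0.0121). A window of 100 kb gave 1.18 at Zic1 and Zic4 at E12 (exact permutation p = 0.0364), a window of 10 kb gave 6.87 at Zic2 and Zic5 at P6 (exact permutation p = 0.0632), and leaving out retina gave 1.601 at Zic1 and Zic4 at P6. The cause of these changes was not tested. With the replicate number as a block the E12 differences were 2.17 and 3.03 (exact permutation p = 0.00606 and p = 0.0303). The numbers share no stated animal or day, so they were not taken to pair the libraries. At P6 brain endothelial and input libraries of the same number correlated at 0.247, 0.521 and -0.187. Those of different numbers correlated at -0.475 to 0.193, and these values do not settle whether the numbers pair libraries.

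Leaving out 1 library at a time, the brain difference at Zic1 and Zic4 ranged from 1.26 to 2.28 at E12, 0.472 to 1.49 at P6 and 1.85 to 2.099 in the adult. At Zic2 and Zic5 it ranged from 3.07 to 4.76 at P6 and 3.04 to 4.95 in the adult (at either locus no p below 0.0909 was possible in the adult without a brain library, by exact permutation), and the difference from input from -0.807 to 0.306. At E12 the raw threshold was passed at Zic1 and Zic4 without heart library 4 or trunk library 4, and at P6 without retina library 3. At Zic2 and Zic5 it was missed at P6 without brain library 2 or 3. Members higher in every brain window ranged from 0 to 2 at E12 and from 0 to 2 at P6, the 2 being found without brain library 1 at either age. Bins open in brain and in no other organ's endothelium ranged from 0 to 2 at P6, and those not open in brain input from 4 to 10 at E12 and from 0 to 2 at P6, again without library 1 at the upper end (against 34% of bins at E12 and 11.6% at P6).

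For counts, stricter peaks gave a Zic1 start peak in 4 brain and 0 other endothelial libraries, Zic2 in 3 others, Zic5 in 3 of retina, and 2 members with higher adult windows. They left 2 bins at E12 and 0 in the adult against input and 1 in the adult against other organs. Equal numbers of top peaks left 0 bins at E12 in both comparisons and 2 in the adult in both. Counting a bin with 1 bp of peak as open gave 0 at E12 against other organs. Within 2 kb, 14 other endothelial libraries had a peak at the Zic5 start.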
